A study of Mus musculus with 6 samples.

Results

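Mitosis and G2/M genes encode the proteins that carry a cell from the end of DNA replication through chromosome segregation to the separation of the daughter cells. The set described here holds 54 genes chosen by function: 7 for mitotic entry, 4 other mitotic kinases, 7 of the spindle checkpoint and the anaphase-promoting complex, 7 of the centromere and kinetochore, 4 of the chromosomal passenger complex, 10 of the spindle, 6 of cytokinesis, 7 of chromosome structure and 2 transcription factors. All 54 were among the 24736 gene symbols of the deposited table. The choice used no measured value, but it was made with earlier results of these data known.

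Intestinal crypts are the pockets at the base of the epithelium in which stem cells and their transit-amplifying daughters divide, while Paneth cells, enterocytes and other differentiated cells have left the cell cycle. Transcripts of most mitotic genes build up in G2 and are lost after division, so in a bulk sample their level follows how many cells are cycling as well as how much each cell holds. Cyclin-dependent kinase 1 with cyclins A and B starts mitosis, Aurora and Polo-like kinases build the spindle, the spindle checkpoint delays anaphase until kinetochores are attached, and the central spindle then guides cytokinesis.

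The crypts came from the full length of the gut of 12-week-old male mice and were released in cold PBS with 2 mM EDTA for 30 minutes. The 3 WT replicates carried no treatment in the labels, and the 3 Mtg16-/- replicates are labelled as a CRISPR-induced Mtg16 knockout, whereas the study's methods describe Mtg16-/- mice received from another laboratory. MTG16, the product of Cbfa2t3, is a transcriptional co-repressor, and the comparison asks how its loss changes gene expression in crypts. The knockout is not described as restricted to the epithelium, so an effect that arises outside it cannot be told apart from one within, and the labels do not say whether animals were littermates or were handled on the same day.

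Expression is given as TPM, a unit that divides by transcript length and scales every library to the same total. Read numbers are not part of it, and sequencing depth is therefore unknown. The targeted gene did not separate the groups: Cbfa2t3 read 3.67, 6.69 and 4.52 TPM in WT replicates 1 to 3 and 4.62, 6.43 and 3.23 TPM in Mtg16-/- replicates 1 to 3. A change that leaves the transcript in place would not show in this measure, so the group names below rest on the labels alone. WT replicate 1 and Mtg16-/- replicate 3 stood at opposite ends of the first principal component over all tested genes, which held 47.7% of the variance. Values are therefore given with all 6 libraries and without WT replicate 1.

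The tissue label was checked against markers of crypt cells. The stem cell genes Olfm4 and Lgr5 and the Paneth cell genes Lyz1 and Defa24 were present in every library, while the fibroblast gene Pdgfra was at most 0.22 TPM and Col1a1 at most 1.32 TPM. The enterocyte gene Fabp1 was also present, at 411 to 5065 TPM, and the T cell gene Cd3e at 6.20 to 31.0 TPM.

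Many G2/M promoters are known to carry CCAAT boxes, which NF-Y binds, and a CHR element with the core TTTGAA, which MuvB complexes bind. Of the 54 genes, 44 had an entry in the promoter table of build GRCm38.p6, read over the 250 bases before the RefSeq start listed there. CCAAT, read on either strand as CCAAT or ATTGG, was found in 34 of the 44 (77.3%), against 37.5% of all 27025 genes with an entry and 40.8% of the tested genes with one. TTTGAA, read as TTTGAA or TTCAAA, was found in 17 (38.6%), against 18.3% of all genes and 12.9% of the tested genes. Both were found in 16 (36.4%), against 6.45% of all genes and 5.02% of the tested genes. Of 40 genes of DNA replication and S phase, 62.5% held CCAAT and 25% held TTTGAA. These are matches of letters, counted separately for each motif and with no test, and not binding sites. The windows end at the start listed for each promoter, which can lie within the gene. For Mki67, Ncapg and Top2a the last 71, 34 and 10 of the 250 bases fell inside the gene's RefSeq span. Some matches may therefore lie in transcribed sequence.

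Promoters are shown for members at the ends of the fold-change order or of highest mean level, a choice made after their values were seen, wherever up to 150 bases next to the start lay in no annotated exon. Matches to either motif are in capitals. The stretches, in RefSeq build GRCm38.p6, are Ccnb2, chr9:70421555-70421704 (minus strand), Ncapg, chr5:45669741-45669890 (plus strand), Mki67, chr7:135716451-135716600 (minus strand), Ube2c, chr2:164769748-164769897 (plus strand), Top2a, chr11:99024200-99024349 (minus strand), and Birc5, chr11:117849087-117849236 (plus strand). All lie before the gene, in no annotated exon, and each reads 5′ to 3′ towards it.
Ccnb2: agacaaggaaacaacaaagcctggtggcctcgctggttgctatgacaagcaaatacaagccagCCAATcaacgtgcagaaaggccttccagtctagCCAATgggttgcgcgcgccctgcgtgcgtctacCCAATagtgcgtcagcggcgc
Ncapg: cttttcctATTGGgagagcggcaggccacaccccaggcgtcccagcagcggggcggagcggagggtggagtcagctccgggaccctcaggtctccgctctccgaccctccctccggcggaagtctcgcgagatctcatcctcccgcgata
Mki67: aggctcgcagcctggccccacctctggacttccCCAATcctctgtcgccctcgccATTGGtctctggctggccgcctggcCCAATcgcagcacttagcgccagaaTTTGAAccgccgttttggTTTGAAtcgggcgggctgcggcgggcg
Ube2c: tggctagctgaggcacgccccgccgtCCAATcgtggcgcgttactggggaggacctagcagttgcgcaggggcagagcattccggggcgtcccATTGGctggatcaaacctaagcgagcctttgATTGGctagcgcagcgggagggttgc
Top2a: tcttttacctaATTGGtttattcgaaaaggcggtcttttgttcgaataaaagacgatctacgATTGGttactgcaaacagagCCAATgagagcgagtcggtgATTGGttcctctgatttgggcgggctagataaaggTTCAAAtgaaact
Birc5: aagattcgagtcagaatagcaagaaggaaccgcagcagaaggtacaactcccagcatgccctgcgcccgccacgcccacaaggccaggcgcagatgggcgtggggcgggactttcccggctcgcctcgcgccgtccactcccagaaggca

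Ccnb2 held 3 CCAAT matches, with 33 bases from the first base of each to that of the next. Mki67 held 3 CCAAT and 2 TTTGAA matches, Top2a held 4 CCAAT matches and 1 of TTCAAA, and Ube2c held 3 CCAAT matches. Ncapg held 1 CCAAT match in the stretch shown and Birc5 held neither motif. For Ccnb2, Ube2c and Ncapg the 250 bases before the listed start also held TTTGAA or TTCAAA, though not within the stretch shown. For Ube2c and Ncapg the last 31 and 34 of these bases, in an annotated exon or the gene's span, were left out. The match may lie there. Nusap1 and Mybl2, which had the largest and the smallest fold change, held neither motif in the 250 bases before their starts.

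All 54 genes were expressed, from 7.86 TPM for Cdc25c in WT replicate 1 to 242 TPM for Ube2c in Mtg16-/- replicate 3. None of them passed the test used, which was limma's moderated test on log2(TPM + 1) over 12268 genes with a mean of at least 1 TPM, with a call at a Benjamini-Hochberg adjusted p under 0.1. Adjusted p ranged from 0.254 to 0.998 over the members, and the same test called 4 of all tested genes (0.0326%), 2 higher (0.0163%) and 2 lower (0.0163%). At an unadjusted p under 0.05 limma gave 4 members higher in Mtg16-/- and 0 lower, to be read against 6.53% and 8.05% of all tested genes. In bulk crypts a different number of dividing cells and a different amount of RNA in each of them cannot be told apart.

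The means of the members were nonetheless mostly on the higher side. The mean was higher in Mtg16-/- in 49 of 54 members (90.7%), while 46.4% of all tested genes were higher. The median log2 fold change was 0.23 over the members and -0.03 over all tested genes. Without WT replicate 1 the mean was higher in 37 of 54 members (68.5%, against 45.4% of all genes), and the median was 0.09, against -0.03 for all genes. No member was called in that fit either, which called 40 of 12216 genes (0.327%), 12 higher (0.0982%) and 28 lower (0.229%). The groups did not overlap in 6 members, Nusap1, Ccnb2, Racgap1, Ncapd2, Cdc25c and Ckap2l, all of them higher in Mtg16-/-, a share of the 54 to be read against 9.94% of all tested genes. In 0 members were all Mtg16-/- values below all WT values, against 11.1% of all tested genes.

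The summed level of the 54 genes placed 1 library apart. The sum was 1851, 2538 and 2687 TPM in WT replicates 1 to 3 and 2448, 2768 and 2949 TPM in Mtg16-/- replicates 1 to 3. The group means were 2359 ± 446 TPM (SD, n = 3) and 2722 ± 253 TPM (SD, n = 3). The groups overlapped, and the sum in WT replicate 1 was 70.9% of the mean of the other WT replicates. The members made up 0.185% to 0.295% of all transcripts.

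**Figure D1:**
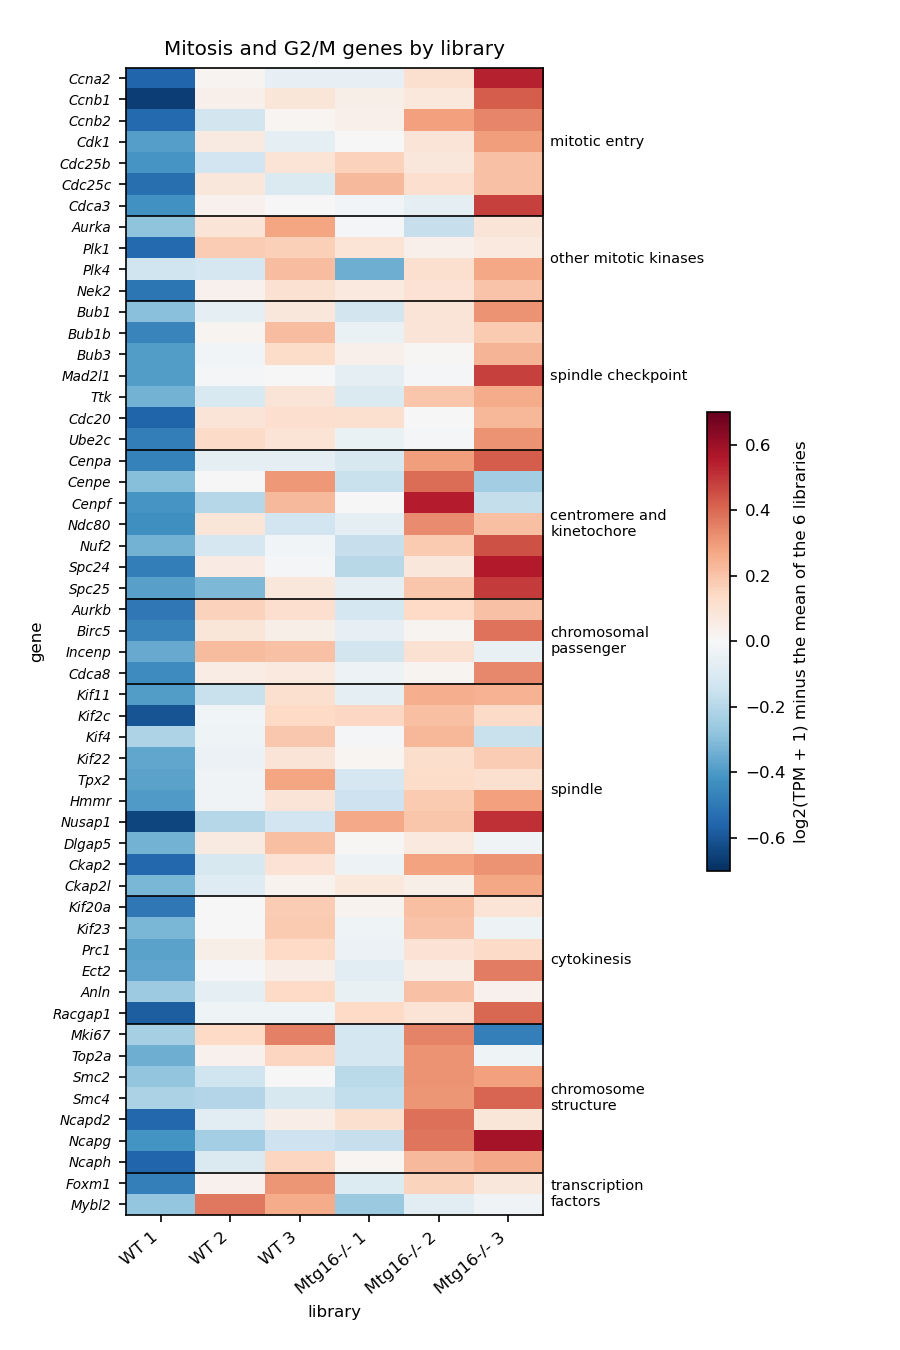
Level of each of the 54 genes in each library, as log2(TPM + 1) minus the mean of the 6 libraries, with genes in rows grouped by role and libraries in columns; blue is below the mean and red above it. WT replicate 1 is the lowest library in 52 of the 54 rows, and Mtg16-/- replicate 3 is the highest in 31.

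WT replicate 1 had the lowest median deviation from the mean of the 6 libraries in each of the 9 roles, while the highest library differed between roles. It was Mtg16-/- replicate 3 for mitotic entry, checkpoint, kinetochore, passenger complex and spindle genes, Mtg16-/- replicate 2 for chromosome structure and cytokinesis genes, and WT replicate 3 for the other kinases and the transcription factors. WT replicate 1 was lower than both other WT replicates in all 54 members and the lowest of the 6 libraries in 52 (96.3%), whereas it was the lowest library for 26.4% of all tested genes. The exceptions were Plk4, lowest in Mtg16-/- replicate 1, and Mki67, lowest in Mtg16-/- replicate 3. The level in WT replicate 1 was 59.8% of the mean of the other WT replicates for Ccnb1 and 95.5% for Smc4, the ends of the range, with a median of 71.8%. Mtg16-/- replicate 3 was the highest library for 31 members (57.4%), against 17.9% of all tested genes. WT replicate 2 or 3 was the highest for 10 members in all, among them Aurka, Foxm1 and Mybl2.

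Markers of other crypt cells differed between the same libraries. The 32 enterocyte genes summed to 56236 TPM in WT replicate 1, against 21942 and 25287 TPM in the other WT replicates and 11381 to 21739 TPM in Mtg16-/-, and WT replicate 1 was the highest library for 30 of the 32. The 10 T cell genes found in the table summed to 559 TPM in WT replicate 1, against 163 and 318 TPM in the other WT replicates and 85.8 to 257 TPM in Mtg16-/-, and it was the highest library for 10 of 10. Mtg16-/- replicate 3, where most members were highest, was the lowest library for 18 of the 32 enterocyte genes and 10 of the 10 T cell genes. The Paneth cell genes went the other way: the 17 genes summed to 10833 TPM in WT replicate 1, against 25852 and 14230 TPM in the other WT replicates and 31072 to 40656 TPM in Mtg16-/-, and WT replicate 1 was the lowest library for 14 of the 16 tested. The 24 enteroendocrine genes summed to 501 to 636 TPM in WT and 745 to 867 TPM in Mtg16-/-. The part of the cell mixture in the members' levels was not tested.

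**Figure D2:**
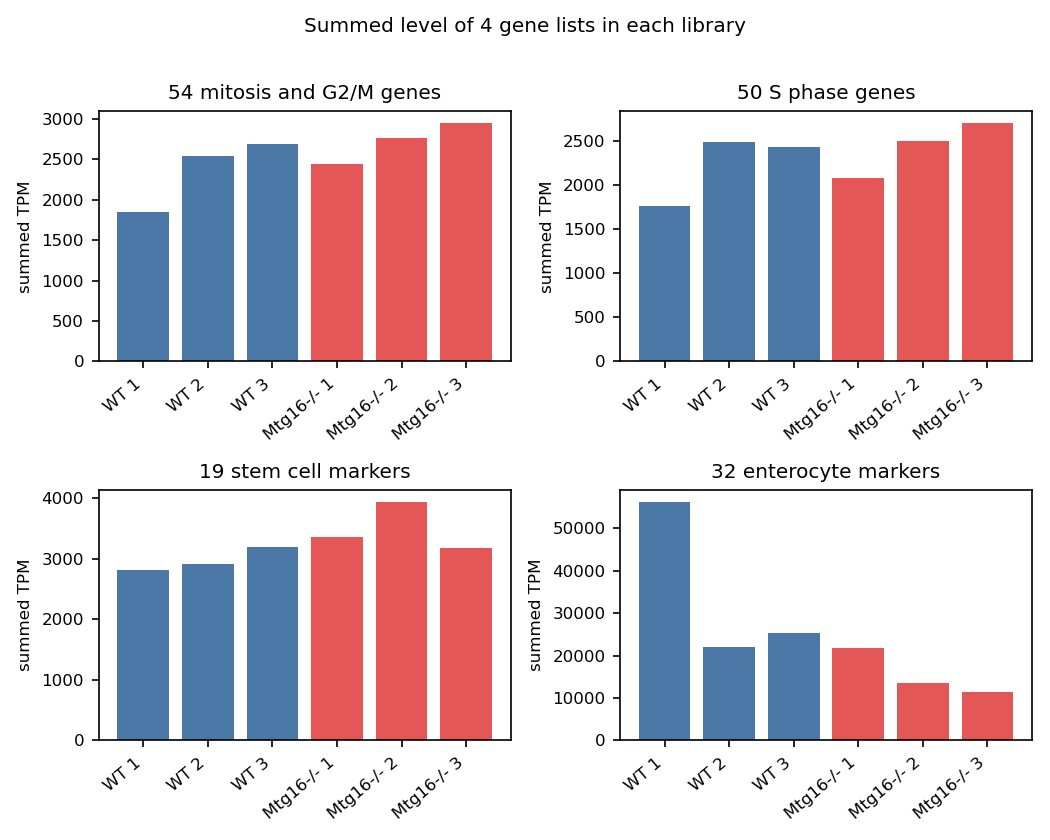
Summed TPM (vertical axis, from 0) of the 54 mitosis and G2/M genes, 50 S phase genes, 19 stem cell markers and 32 enterocyte markers in each of the 6 libraries, WT in blue and Mtg16-/- in red. WT replicate 1 has the lowest sum for the first 3 lists and the highest for enterocyte markers, at 56236 TPM.

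Genes of mitotic entry had higher means in Mtg16-/- in 7 of 7, with and without WT replicate 1, and none was called. Their median log2 fold change was 0.36, and 0.17 without that replicate. Ccnb2, a B-type cyclin, read 53.9, 72.3 and 79.7 TPM in WT and 81.0, 96.6 and 100.4 TPM in Mtg16-/-. Each Mtg16-/- library was above each WT library, though the nearest values differed by little. Its log2 fold change was 0.44 (SE 0.17, adjusted p = 0.312), and 0.28 (SE 0.14, adjusted p = 0.471) without WT replicate 1. Ccna2, cyclin A2, which acts in both S phase and G2, read 54.9, 82.4 and 78.04 TPM in WT and 77.98, 87.9 and 118 TPM in Mtg16-/-, and its groups overlapped narrowly (log2 fold change 0.40, adjusted p = 0.408). Cdca3, which helps to degrade the inhibitory kinase Wee1, read 78.03, 107 and 105 TPM in WT and 104, 99.9 and 147 TPM in Mtg16-/-, so that it was high in Mtg16-/- replicate 3 alone (log2 fold change 0.26, adjusted p = 0.536).

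The other entry genes were also lowest in WT replicate 1. Ccnb1, the main partner of Cdk1, read 31.4, 51.6 and 53.5 TPM in WT and 51.7, 53.1 and 67.9 TPM in Mtg16-/-, and its log2 fold change went from 0.36 to 0.12 when WT replicate 1 was left out. Cdk1 itself read 32.4, 44.5 and 40.8 TPM in WT and 42.8, 45.4 and 52.5 TPM in Mtg16-/-. Cdc25c, a phosphatase that activates Cdk1, was at 7.86, 12.5 and 10.9 TPM in WT and 13.9, 12.8 and 13.7 TPM in Mtg16-/-. For Cdc25c the groups did not overlap, but the log2 fold change of 0.37 was not called (adjusted p = 0.381). Cdc25b, a phosphatase of the same family, differed by 0.30.

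The other mitotic kinases differed less. Aurka, which matures centrosomes, read 36.8, 47.9 and 54.6 TPM in WT and 44.7, 40.1 and 47.9 TPM in Mtg16-/-. The Mtg16-/- values fell within the WT range, and the log2 fold change was -0.05 (SE 0.16, adjusted p = 0.898). Without WT replicate 1 it was -0.21 (SE 0.13, adjusted p = 0.571). Plk1, Polo-like kinase 1, read 42.1, 70.2 and 69.4 TPM in WT and 66.1, 63.5 and 64.9 TPM in Mtg16-/-, a log2 fold change of 0.13 (adjusted p = 0.770) with all libraries and -0.11 (adjusted p = 0.728) without WT replicate 1. Without that library all 3 Mtg16-/- values of Plk1 were below both WT values. Nek2, which splits centrosomes, and Plk4, which starts centriole duplication, differed by 0.24 and 0.03 on the log2 scale.

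Genes of the spindle checkpoint and the anaphase-promoting complex had higher means in Mtg16-/- in 7 of 7, and in 5 of 7 without WT replicate 1, with medians of 0.19 and 0.04. Ube2c, the ubiquitin-conjugating enzyme of the anaphase-promoting complex, had the highest mean level of all members. It read 139, 213 and 208 TPM in WT and 188, 192 and 242 TPM in Mtg16-/-, and its log2 fold change was 0.17 (adjusted p = 0.697) and -0.03 (adjusted p = 0.945) without WT replicate 1. Cdc20, which activates the anaphase-promoting complex, read 58.4, 92.2 and 94.1 TPM in WT and 93.7, 86.9 and 102 TPM in Mtg16-/-, and its log2 fold change went from 0.23 to 0.01. Apart from WT replicate 1, the libraries of both groups lay near one another for Cdc20. For Ube2c, Mtg16-/- replicate 3 also stood apart, above the others at 242 TPM. The checkpoint kinases Bub1 and Ttk and the checkpoint proteins Bub1b, Bub3 and Mad2l1 had log2 fold changes of 0.15 to 0.27.

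In the centromere and kinetochore group, 6 of 7 genes had higher means in Mtg16-/- with and without WT replicate 1, with medians of 0.31 and 0.18. Cenpa, the histone H3 variant that marks centromeres, read 38.9, 52.1 and 51.8 TPM in WT and 50.2, 66.8 and 73.3 TPM in Mtg16-/-, a log2 fold change of 0.40 (SE 0.18, adjusted p = 0.357). Replicates 2 and 3 of Mtg16-/- were above all WT libraries and replicate 1 was not. Spc24, a subunit of the Ndc80 complex that binds microtubules, read 22.7, 33.6 and 31.95 TPM in WT and 28.0, 34.1 and 47.8 TPM in Mtg16-/-, with replicate 3 alone standing high (log2 fold change 0.29, adjusted p = 0.548). The other Ndc80 subunits, Ndc80, Nuf2 and Spc25, had log2 fold changes of 0.32, 0.31 and 0.41, each with a lower value without WT replicate 1. The mean levels of the 4 subunits ranged from 14.2 TPM for Ndc80 to 33.0 TPM for Spc24.

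The motor Cenpe and the large kinetochore protein Cenpf were low in Mtg16-/- replicate 3. Cenpe read 17.8, 22.03 and 27.5 TPM in WT and 19.8, 29.3 and 18.5 TPM in Mtg16-/-. Cenpf read 11.9, 14.0 and 19.1 TPM in WT and 16.1, 24.1 and 14.3 TPM in Mtg16-/-. Both were highest in Mtg16-/- replicate 2. Ndc80 was also highest there, at 17.9 TPM against 16.4 TPM in replicate 3, whereas Cenpa, Nuf2, Spc24 and Spc25 were highest in replicate 3. The ratio of Cenpf to Cenpa was 0.268 to 0.369 in WT, 0.321 and 0.361 in Mtg16-/- replicates 1 and 2, and 0.194 in replicate 3.

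The chromosomal passenger complex corrects faulty attachments and then moves to the central spindle. Birc5, its survivin subunit, read 86.6, 127 and 123 TPM in WT and 115, 121 and 156 TPM in Mtg16-/-, with a log2 fold change of 0.23 (adjusted p = 0.575) and 0.05 (adjusted p = 0.906) without WT replicate 1. Cdca8, the borealin subunit, read 42.7, 60.5 and 61.2 TPM in WT and 57.0, 59.2 and 74.0 TPM in Mtg16-/- (log2 fold change 0.22, adjusted p = 0.575). For both genes the WT and Mtg16-/- libraries other than WT replicate 1 and Mtg16-/- replicate 3 lay close together. Aurkb, the kinase of the complex, had a log2 fold change of 0.15, and Incenp, its scaffold, of -0.05. Without WT replicate 1 these were -0.06 and -0.24. Incenp read 41.0, 61.5 and 60.8 TPM in WT and 48.1, 56.9 and 50.9 TPM in Mtg16-/-, so that without WT replicate 1 all Mtg16-/- values were the lower ones. The 4 subunits, which act together, thus gave 2 higher and 2 lower means without that library.

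Spindle genes had higher means in Mtg16-/- in 10 of 10, and in 7 of 10 without WT replicate 1, with medians of 0.24 and 0.09. Nusap1, a microtubule-binding protein that bundles spindle fibres near chromosomes, differed most of all members. It read 22.9, 31.5 and 33.0 TPM in WT and 43.9, 41.7 and 52.2 TPM in Mtg16-/-, or 29.2 ± 5.4 TPM (SD, n = 3) and 45.9 ± 5.6 TPM (SD, n = 3). Every Mtg16-/- library was above every WT library, in Mtg16-/- replicate 3 by the widest margin. The log2 fold change was 0.65 (SE 0.17, adjusted p = 0.254), and 0.49 (SE 0.14, adjusted p = 0.329) without WT replicate 1, so it was not called in either fit. Nusap1 lies head to head with Oip5 on chromosome 2 (GRCm38.p6), and 4.24% of its exon bases overlap exons on the other strand.

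Among the other spindle genes, Kif11, the Eg5 motor that pushes the poles apart, read 34.9, 41.3 and 49.9 TPM in WT and 44.2, 55.2 and 54.9 TPM in Mtg16-/- (log2 fold change 0.29, adjusted p = 0.429). Kif22, a motor that moves chromosome arms, read 33.0, 41.6 and 45.7 TPM in WT and 43.2, 46.7 and 48.5 TPM in Mtg16-/- (log2 fold change 0.21, adjusted p = 0.514). The groups overlapped for both. Ckap2l, a spindle protein, read 17.7, 20.8 and 22.7 TPM in WT and 23.5, 22.9 and 27.1 TPM in Mtg16-/-, without overlap but with a nearest gap of less than 1 TPM. Tpx2, which activates Aurora A, Kif4, a chromosome-bound motor, and Dlgap5, which stabilizes kinetochore fibres, had log2 fold changes of 0.08, 0.04 and 0.04, and all 3 were below 0 without WT replicate 1. The microtubule depolymerase Kif2c, the spindle protein Ckap2 and the hyaluronan receptor Hmmr, which also binds the spindle, had log2 fold changes of 0.32, 0.37 and 0.22.

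Cytokinesis genes had higher means in Mtg16-/- in 6 of 6, and in 4 of 6 without WT replicate 1, with medians of 0.17 and 0.02. Racgap1, a GTPase-activating protein of the centralspindlin complex, read 37.0, 54.6 and 54.5 TPM in WT and 61.4, 59.7 and 74.1 TPM in Mtg16-/-. The groups did not overlap, and the log2 fold change was 0.43 (SE 0.18, adjusted p = 0.331), and 0.24 (adjusted p = 0.513) without WT replicate 1. Kif23, its partner in centralspindlin, read 34.3, 43.2 and 49.2 TPM in WT and 42.3, 49.7 and 42.1 TPM in Mtg16-/-, a log2 fold change of 0.09. Prc1, which bundles the central spindle, read 38.5, 51.7 and 55.5 TPM in WT and 48.9, 53.9 and 55.4 TPM in Mtg16-/- (log2 fold change 0.13, adjusted p = 0.709). Without WT replicate 1 the log2 fold changes of Kif23 and Prc1 were -0.05 and -0.02. Anln, which links actin and septins in the furrow, Ect2, which activates RhoA, and the motor Kif20a had log2 fold changes of 0.12, 0.22 and 0.22.

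Genes of chromosome structure had higher means in Mtg16-/- in 6 of 7, and in 5 of 7 without WT replicate 1, with medians of 0.34 and 0.21. Ncapg, a subunit of condensin I, read 12.3, 14.1 and 15.1 TPM in WT and 14.9, 22.03 and 25.5 TPM in Mtg16-/-. Its replicates 2 and 3 of Mtg16-/- stood above WT and replicate 1 stayed inside it, and the log2 fold change was 0.53 (SE 0.20, adjusted p = 0.311). The other condensin subunits gave log2 fold changes of 0.28 for Smc2, 0.36 for Smc4, 0.39 for Ncapd2 and 0.34 for Ncaph. All 5 were above 0 also without WT replicate 1, at 0.14 to 0.46, and none was called. Ncapd2 read 39.9, 55.8 and 60.8 TPM in WT and 63.6, 77.1 and 62.6 TPM in Mtg16-/-, without overlap.

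Mki67 and Top2a, the usual markers of proliferating cells, were not highest in Mtg16-/- replicate 3. Mki67, which coats mitotic chromosomes, read 107, 139 and 161 TPM in WT and 116, 161 and 90.3 TPM in Mtg16-/-, or 136 ± 27.1 TPM (SD, n = 3) and 122 ± 35.7 TPM (SD, n = 3). The groups overlapped, with the lowest value of all in Mtg16-/- replicate 3, and the log2 fold change was -0.17 (SE 0.23, adjusted p = 0.745), and -0.33 (SE 0.23, adjusted p = 0.600) without WT replicate 1. Without Mtg16-/- replicate 3 it was 0.03. Top2a, which untangles sister chromatids, read 119, 154 and 168 TPM in WT and 139, 188 and 148 TPM in Mtg16-/- (log2 fold change 0.11, adjusted p = 0.793), and -0.04 without WT replicate 1.

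**Figure D3:**
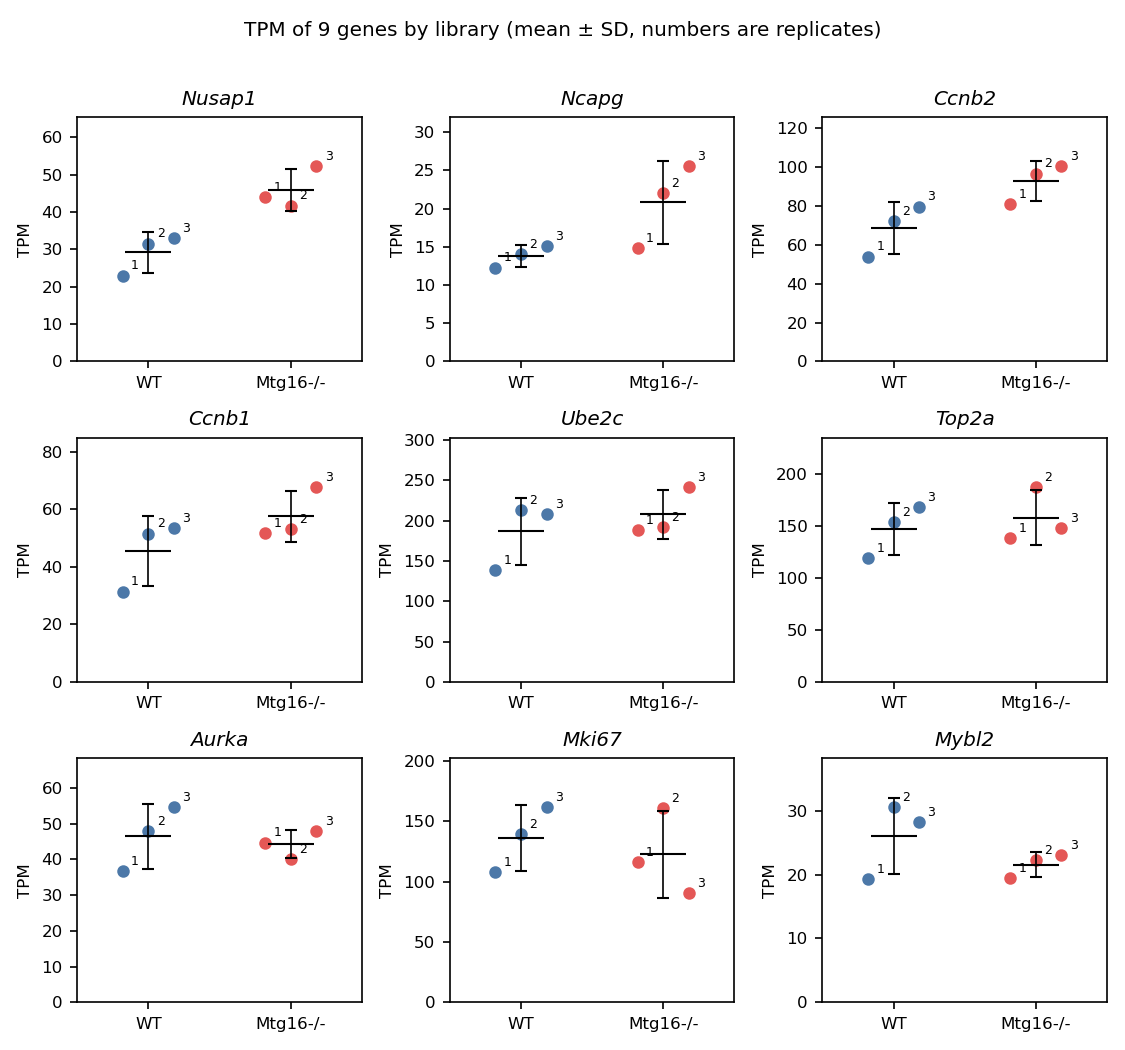
TPM of Nusap1, Ncapg, Ccnb2, Ccnb1, Ube2c, Top2a, Aurka, Mki67 and Mybl2 in each library (points, numbered by replicate), with the mean and SD of each group of 3; each vertical axis starts at 0. The groups separate for Nusap1 and Ccnb2, from 22.9 to 33.0 against 41.7 to 52.2 TPM for Nusap1, and overlap for the other 7 genes.

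Neither transcription factor of the program was called, and both had lower means in Mtg16-/- without WT replicate 1. Foxm1, which drives G2/M genes, read 19.8, 28.6 and 34.9 TPM in WT and 26.1, 31.2 and 29.6 TPM in Mtg16-/- (log2 fold change 0.09, adjusted p = 0.854), and its log2 fold change was -0.12 (adjusted p = 0.763) without WT replicate 1. Mybl2, the B-Myb factor that joins MuvB, read 19.3, 30.5 and 28.2 TPM in WT and 19.4, 22.2 and 23.0 TPM in Mtg16-/-. Its mean was 26.0 ± 5.96 TPM (SD, n = 3) in WT and 21.6 ± 1.91 TPM (SD, n = 3) in Mtg16-/-, the lowest log2 fold change of the members at -0.24 (SE 0.19, adjusted p = 0.554). Without WT replicate 1 all Mtg16-/- values were below both WT values, and the log2 fold change was -0.43 (SE 0.14, adjusted p = 0.354).

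**Figure D4:**
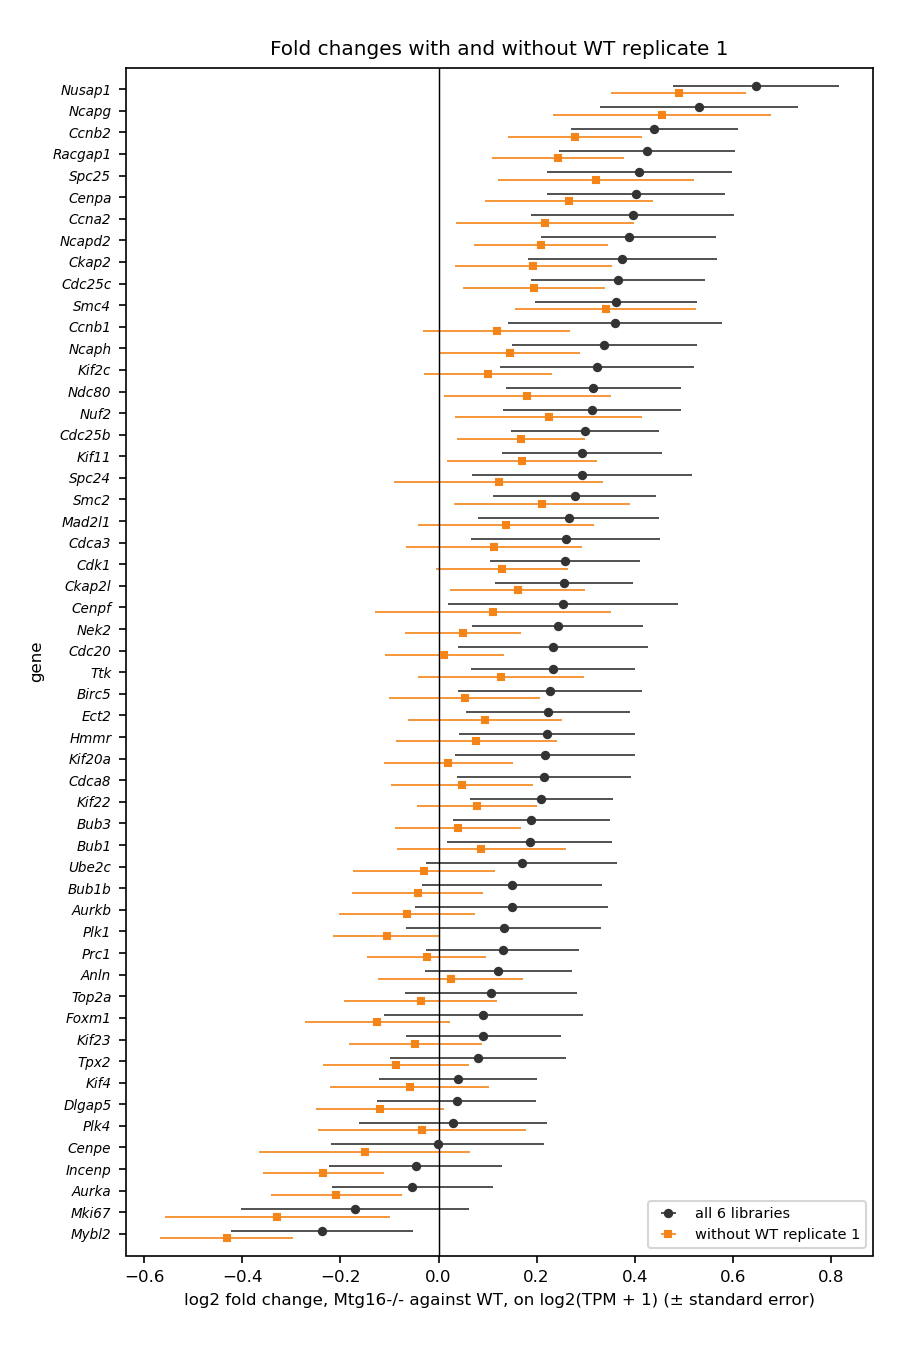
Log2 fold change of Mtg16-/- against WT on the log2(TPM + 1) scale for the 54 genes, with standard errors, in all 6 libraries (black) and without WT replicate 1 (orange). Nusap1 is at the top at 0.65 and 0.49, Mybl2 at the bottom at -0.24 and -0.43, and leaving out WT replicate 1 moves the values to the left.

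Without WT replicate 1, the groups did not overlap in 9 members. The same 6 genes as above were higher in Mtg16-/-, against 14.6% of all tested genes, and Plk1, Incenp and Mybl2 were lower, against 16.9%. At an unadjusted p under 0.05 limma then gave 1 member higher (Nusap1, against 5.31% of all tested genes) and 1 lower (Mybl2, against 6.13%). When Mtg16-/- replicate 3 was left out as well, a choice made after seeing the data, 28 of 54 members had higher means, and the median log2 fold change was 0.01 over the members and 0.01 over all tested genes.

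The length of the transcript went with the level in Mtg16-/- replicate 3. For the 10 members whose longest annotated transcript is under 2000 bases, the median deviation of that library from the mean of the 6 libraries was 0.34 on the log2 scale. It was 0.26 for 28 members from 2000 to under 4000 bases, 0.10 for 12 from 4000 to under 6000 bases and -0.21 for 4 of 6000 bases or more. Over all tested genes with a length the same medians were 0.07, -0.05, -0.12 and -0.25, so long transcripts were low in that library generally. The longest members are Cenpf (11130 bases), Mki67 (10061 bases) and Cenpe (7910 bases), and their deviations were -0.17, -0.48 and -0.24. Mad2l1, with 7557 bases in its longest annotated form, was the exception at 0.48. The ratio of Mki67 to Ccnb1 was 2.70 to 3.42 in WT, 2.25 and 3.03 in Mtg16-/- replicates 1 and 2, and 1.33 in replicate 3. With a correction for length and GC content fitted over all genes, 51 of 54 members had higher means, against 6594 of 12268 tested genes. The median log2 fold change was 0.27, against 0.02 for all genes, and no member was called (0.0326% of all tested genes were). With the correction and without WT replicate 1, 38 of 54 members had higher means, against 6167 of all tested genes higher and 6010 lower. The median was then 0.07, against 0.0037 for all genes. Mki67 was at -0.07 with the correction and all 6 libraries, and at -0.25 with it and without WT replicate 1. The part of length in the other values was not tested.

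**Figure D5:**
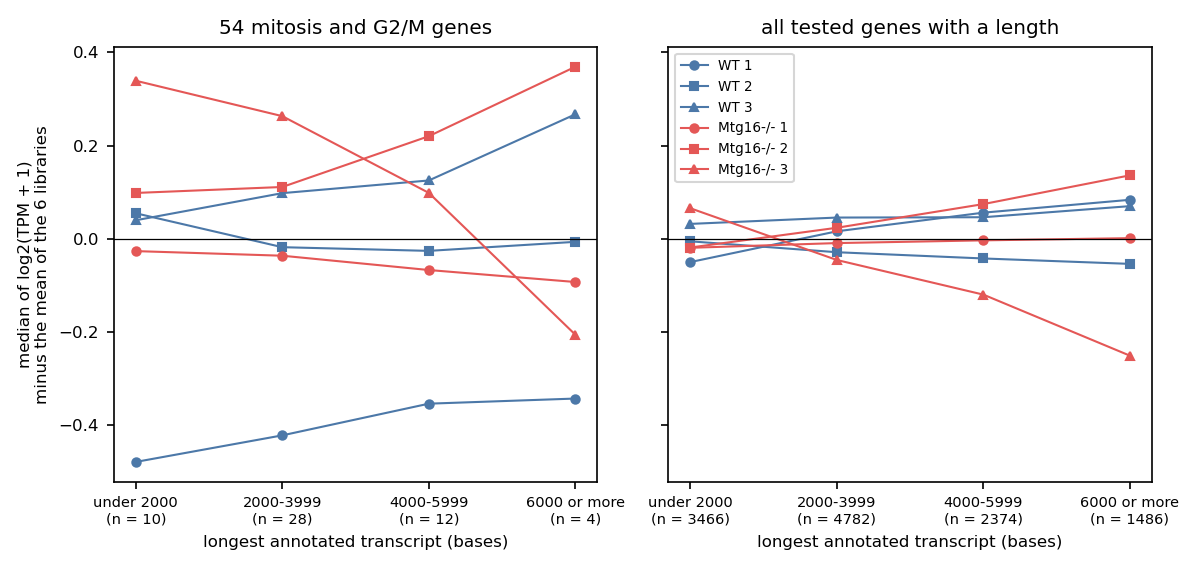
Median deviation of each library from the mean of the 6 libraries, in log2(TPM + 1), by length class of the longest annotated transcript, for the 54 genes (left) and all tested genes with a length (right). The line of Mtg16-/- replicate 3 goes from 0.34 to -0.21 in the members and from 0.07 to -0.25 in all genes.

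Genes of DNA replication and S phase, which act before the members, were compared as the nearest other list of the cell cycle. The 50 genes summed to 1767, 2493 and 2433 TPM in WT and 2083, 2500 and 2706 TPM in Mtg16-/-, and WT replicate 1 was at 71.8% of the other WT replicates, close to the share for the members. None was called, 36 of 50 had higher means in Mtg16-/-, and their median log2 fold change was 0.10. Without WT replicate 1, 23 of 50 had higher means, against 45.4% of all tested genes, and the median was -0.05. In that fit all Mtg16-/- values lay above both WT values in 4 genes and below both in 13. Over all tested genes these shares were 14.6% and 16.9%. With all 6 libraries the counts were 4 and 0, against 9.94% and 11.1%. The ratio of the summed members to the summed S phase genes was 1.05, 1.02 and 1.10 in WT and 1.18, 1.11 and 1.09 in Mtg16-/-, so the ranges overlapped. At the ends of this list, the thymidine kinase Tk1 and the helicase subunit Gins4 had log2 fold changes of 0.57 and 0.50, and the GINS subunit Gins3 and the factor E2f2 of -0.38 and -0.27. Neither end passed the test, at an adjusted p of 0.282 for Tk1 and 0.428 for E2f2.

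A further list of G2/M genes that are not members held 98 symbols, of which 93 were in the table and tested. Of these, 70 had higher means in Mtg16-/- and 51 without WT replicate 1, against 46.4% and 45.4% of all tested genes. The median log2 fold change was 0.10 and then 0.03. None was called, against 0.0326% and 0.327% of all tested genes. All Mtg16-/- values lay above all WT values in 16 genes and below them in 2, against 9.94% and 11.1% of all tested genes. Without WT replicate 1 these counts were 18 and 9, against 14.6% and 16.9%. Oip5, a protein that loads Cenpa at centromeres and the neighbour of Nusap1, read 2.87, 5.20 and 5.73 TPM in WT and 7.43, 8.51 and 12.9 TPM in Mtg16-/- (log2 fold change 0.93, SE 0.27, adjusted p = 0.263). The groups did not overlap for Oip5. Cenpk, a subunit of the inner kinetochore, differed by 0.82 with overlapping groups, and Zw10, which recruits dynein to kinetochores, by -0.47 with all Mtg16-/- values lower. Cenpo, another inner kinetochore subunit, differed by -0.27. The ratio of the summed members to the sum of this further G2/M list was 0.634, 0.739 and 0.763 in WT. It was 0.768, 0.816 and 0.779 in Mtg16-/-, so the ranges did not overlap, though the nearest values were close. For this list the sum in WT replicate 1 was 83.9% of the mean of the other WT replicates, against 70.9% for the members. The stem cell markers share the crypt base with dividing cells. They summed to 2813, 2906 and 3192 TPM in WT and 3351, 3937 and 3185 TPM in Mtg16-/-. The ratio of the members to them ranged from 0.658 to 0.873 in WT and from 0.703 to 0.926 in Mtg16-/-. WT replicate 1 was the lowest library for 18 of the 19 markers and the highest for 1. Its median deviation from the mean of the 6 libraries was -0.53 over these markers, against -0.40 over the members.

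Across the fit with all 6 libraries and the 18 alternatives with a fit of their own, 26 members had a higher mean in Mtg16-/- each time, 1 (Mybl2) had a lower mean each time, and 27 had both signs. Exons of other annotated genes overlap those of 18 members. For Kif20a, 29.3% of exon bases lie opposite Cdc23, and for Ube2c 22.8% lie opposite Tnnc2, and the strand setting of the counting is not given in the sources used here, so reads there may be shared between the genes. Pseudogenes named for Ccnb1, Ccnb2, Kif22 and Kif4 were also in the annotation, and the split of reads with them is uncertain.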

How the data were processed

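RNA was sequenced from crypts of 3 WT and 3 Mtg16-/- mice, which the design text calls biological triplicates, after ribosomal RNA depletion (200 ng input, 14 PCR cycles). The processing notes of the submitters name cutadapt 1.9.1, STAR 2.5.2a, RSEM 1.3.0, DESeq2 1.12.3 and build mm10, without roles or order. The authors deposited 1 table of TPM values from RSEM, normalized by transcript length and to the same total in each library. Read numbers cannot be recovered from it, so depth is unknown and no counting interval is given.

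A pseudocount of 1 was added before the log2, which understates changes of low genes. Genes with a mean of at least 1 TPM were tested with limma 3.58.1 (lmFit and eBayes with a trend, R 4.3.3) without covariates, with Benjamini-Hochberg adjustment over all 12268 and a call at an adjusted p under 0.1. The fit was also run on simulated independent libraries, with changes larger than those of any member and no outlying library. Whether it would call changes of the members' size was not tested. Sums, medians, ratios and motif counts are descriptions (Python 3.11.15). Promoters come from RefSeq (GRCm38.p6) and transcript lengths from GENCODE vM21. The members and lists were chosen with earlier results of these data known. Genes were named by rule: the 2 of highest mean TPM in each role, the 3 with the largest and the 3 with the smallest fold change, any called member, and Mki67; others are named where their role is described. In the other cell cycle lists the 2 genes at each end were named. Alternatives covered scaling, filter, pseudocount, moderation, array weights, a replicate block and leaving out libraries. The length correction and the fit without both outlying libraries were added after seeing the data.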

Additional observations from a re-analysis of the deposited data

How the results depend on the processing

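None of the 54 genes was called with or without WT replicate 1. The number of called members was 0 in the reported fit, 1 (Nusap1) with array weights and 4 (Ccnb2, Cenpa, Nusap1 and Ncapg) with the replicate number as a block. Over all tested genes 4 were called in the reported fit, 0 without a filter, 15 with a mean of at least 5 TPM, 1 with median-ratio rescaling, 1 after quantile normalization, 0 without the intensity trend, 20 with robust moderation, 855 (6.97%) with array weights, 1201 (9.79%) with the replicate block and 0 at an adjusted p under 0.05. When libraries were left out 0 to 44 were called, 40 without WT replicate 1 alone, 39 without WT replicate 1 and Mtg16-/- replicate 3, and 44 without WT replicate 1 with the length and GC correction. The S phase list had 1 called gene with array weights and 2 with the block, and the further G2/M list 4 and 5. The cause of these differences was not tested.

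The median log2 fold change of the members, 0.233 as reported, ranged from 0.00863 (without WT replicate 1 and Mtg16-/- replicate 3) to 0.328 (without WT replicate 3), with 0.0912 without WT replicate 1 alone. The same fits gave 28 to 52 members with higher means, and 37 without WT replicate 1 alone. They gave 7 to 24 members without overlap. There were 22 without WT replicate 3, 24 without Mtg16-/- replicate 1 and 16 without WT replicate 1 and Mtg16-/- replicate 3. Of all tested genes 29.6%, 38.8% and 44.7% did not overlap in these fits, whose groups were smaller. At the same group sizes as without Mtg16-/- replicate 1, the share was 27.7% without Mtg16-/- replicate 2 and 28.2% without Mtg16-/- replicate 3. The part of group size was not tested. Quantile normalization gave 11, against 22% of all genes. The S phase median ranged from -0.129 to 0.195 and that of the further G2/M list from -0.0205 to 0.191, both lowest without WT replicate 1 and Mtg16-/- replicate 3.

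With libraries left out, log2 fold changes crossed 0 for 12 of the 21 members that the naming rule picked. Spc24, Cdca3, Cdc20, Birc5 and Cdca8 did so only without both WT replicate 1 and Mtg16-/- replicate 3, a fit added after seeing the data. Those libraries were the lowest for 52 and the highest for 31 of the 54 members. Over all alternatives 27 of the 54 members had both signs. For the 12 the values ranged from -0.0816 to 0.463 for Spc24, -0.0621 to 0.36 for Cdca3, -0.0461 to 0.351 for Cdc20, -0.0786 to 0.326 for Birc5, -0.0667 to 0.303 for Cdca8, -0.145 to 0.278 for Ube2c, -0.106 to 0.256 for Plk1, -0.0598 to 0.233 for Prc1, -0.0365 to 0.209 for Top2a, -0.142 to 0.269 for Foxm1, -0.267 to 0.0696 for Aurka and -0.385 to 0.0276 for Mki67. Without WT replicate 1 and with the length and GC correction, Prc1 was at -0.0565 and Top2a at -0.0938. Array weights gave -0.0393 for Ube2c, -0.0609 for Plk1, -0.0103 for Prc1 and -0.11 for Foxm1. Aurka was at 0.0156 after quantile normalization and 0.0032 with the length and GC correction.

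The labels do not say whether same-numbered libraries share more than a number. Their deviations from the group means correlated at 0.429, 0.0753 and 0.237 across genes for pairs 1 to 3. The mean of these correlations was 0.247, and the means of the other pairings ran from -0.183 to 0.227. The same-numbered pairing thus had the highest mean, though narrowly. The second pair is under the limit of 0.1 used for a pair, so values with the block are given here alone. Whether the numbers mark a pairing was not tested further. Depth is unknown for TPM, and 3 libraries a group limit the precision.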
